A study of Homo sapiens with 12 samples.

Results

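The protein-folding machinery of the endoplasmic reticulum (ER), and the unfolded protein response that sets its level, were described through 40 member genes chosen by symbol from 60675 genes in the files. All 40 were found and all 40 passed the filter on low counts in each fit, so none of the counts below leaves a member out. By role they were 4 sensors and transcription factors, 10 Hsp70 and Hsp90 chaperones with their co-chaperones and induced partners, 4 genes of lectin-guided glycoprotein folding, 6 disulfide and proline isomerases or oxidases, 11 genes of ER-associated degradation, and 5 genes of the translocon, ER export or ER membrane. RNA-Seq covered 12 libraries of 6 groups with 2 replicates each. They were of LNCaP:C4-2 (C4-2), a castration-resistant human prostate cancer line, or were labelled LNCaP, the androgen-dependent line it derives from. The second name is taken from the labels, and markers given below put it in doubt. All groups carried the synthetic androgen R1881 at 1 nM in hormone-depleted serum, and treatment lasted 72 h. Per the study, all groups, R1881 alone included, also carried the DMSO vehicle. The C4-2 groups were R1881 alone, R1881 with namoline (50 µM, an inhibitor of the histone demethylase KDM1A), R1881 with TCE-5002 (an inhibitor of the demethylase KDM7A that is also described as acting on KDM7B and KDM2A) and R1881 with both inhibitors (the combination), and for LNCaP there were R1881 alone and the combination. TCE-5002 is listed at 100 µM in the series text while the methods of the study give a lower dose, so its dose is uncertain. Each line is an established culture, and in bulk RNA fewer cells of a type and less RNA per cell cannot be told apart.

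Proteins that enter the secretory pathway are threaded through the Sec61 translocon into the ER, where they are folded by HSPA5 (BiP) and its partners, glycosylated, cross-linked by disulfide isomerases and, when folding fails, sent back to the cytosol for degradation. When unfolded clients accumulate, the membrane sensors ATF6, ERN1 (IRE1) and EIF2AK3 (PERK) raise the transcription of these same genes, ERN1 through the splicing of XBP1 mRNA and EIF2AK3 through ATF4. Luminal prostate cells secrete large amounts of protein, and the androgen receptor is known to act on several genes of this network. The values below are mRNA levels, and gene counts do not separate spliced from unspliced XBP1 mRNA.

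Library totals ran from 14791602 to 20690819 counts. Levels are CPM, counts scaled to library size with TMM factors over the 12 libraries, changes are log2 fold changes ± SE from edgeR's quasi-likelihood test, and a gene passed (rose or fell) where its p, Benjamini-Hochberg adjusted over all genes tested, was under 0.05. The study describes the 2 samples of a group as biological replicates, and p-values measure the spread between them, which may be partly technical. Across genes, which are not independent of each other, replicates of a group correlated at r = 0.981 (C4-2 TCE-5002) to 0.996 (log2 CPM). Of 39 members above 10 CPM, 2 differed over 1.5-fold between the C4-2 TCE-5002 replicates (SDF2L1 and WFS1) and 0 did in the other 5 groups. The libraries labelled LNCaP departed from the C4-2 marker profile. With R1881 alone the summed level of 14 luminal markers was 1076 to 1166 CPM against 5476 to 5604 CPM in C4-2, with 13 lower and 1 higher in LNCaP. That of 12 mesenchymal markers was 871.8 to 970.8 CPM against 79.91 to 81.74 CPM in C4-2, where CDH2, ZEB2, SPARC and LUM were at 0 counts. LUM was at 0 counts in LNCaP as well, and of the 10 that could be tested 9 were higher and 1 lower there. The summed level of 8 neuroendocrine markers was 188.5 to 190.1 CPM against 8.779 to 8.952 CPM, where CHGB and INSM1 were at 0 counts, and all 6 that could be tested were higher in LNCaP. All 14 luminal markers stayed above 1 CPM in each group. Median log2 differences from C4-2 of the genes tested were -2.23 (luminal), 8.05 (mesenchymal) and 7.39 (neuroendocrine). Differences of this size put the line of these libraries in doubt, and LNCaP is used below as their label only. The count file of 1 library titled as LNCaP combination (replicate 1) names namoline without TCE-5002 in its own header, and the log2 changes in LNCaP of the members described under that comparison are also given without it. Fits that leave an arm with 1 library assume that it varies like the other groups.

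Promoter sequence was examined first, since members of this network are known to share short control elements. Promoters from RefSeq (GRCh38.p14, 250 bases before the start and 50 from it on) were found for 35 of 40 members, the others being PDIA3, FKBP14, DERL1, DERL3 and SEC24D. The ER stress element (ERSE, CCAAT, 9 bases of any kind, then CCACG, either strand) was in 7 of 35 member promoters (20%), namely XBP1, HSPA5, HSP90B1, CRELD2, CALR, CANX and ERO1B, and in 22 of 27305 promoters in all (0.0806%). ERSE-II (ATTGG, 1 base, then CCACG, either strand) was in 3 of 35 (8.57%), HYOU1, SDF2L1 and HERPUD1, and in 15 of 27305 (0.0549%). The XBP1 core TGACGTG was in 1 of 35 (HYOU1, 2.86%, overlapping its ERSE-II) against 2% of all promoters, and the ATF4 element (TGATG, 1 base, AA) in 1 of 35 (HERPUD1, 2.86%) against 3.67%. These letter matches describe the windows only. The members were listed partly as targets of ATF6 and XBP1, so their higher shares of ERSE and ERSE-II are not independent evidence. The 250 bases before the RefSeq start are shown, in gene orientation, for the 6 members that hold ERSE or ERSE-II and whose levels are given library by library below, with the element in capitals. They lie at chr9:125241344-125241593 (minus strand) for HSPA5, chr12:103930160-103930409 (plus) for HSP90B1, chr22:28800570-28800819 (minus) for XBP1, chr16:56931892-56932141 (plus) for HERPUD1, chr22:21642052-21642301 (plus) for SDF2L1 and chr22:49918384-49918633 (plus) for CRELD2. The HSPA5 window lay outside the gene span of the deposited annotation, those of XBP1, SDF2L1 and HERPUD1 reached into it by 28, 41 and 94 bases, and those of HSP90B1 and CRELD2 lay within it, since that annotation starts those genes further upstream.
HSPA5: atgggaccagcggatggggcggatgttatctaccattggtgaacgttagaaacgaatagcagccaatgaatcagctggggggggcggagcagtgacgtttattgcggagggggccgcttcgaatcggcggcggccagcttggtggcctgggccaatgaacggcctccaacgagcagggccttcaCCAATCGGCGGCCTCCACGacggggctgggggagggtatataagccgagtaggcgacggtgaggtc
HSP90B1: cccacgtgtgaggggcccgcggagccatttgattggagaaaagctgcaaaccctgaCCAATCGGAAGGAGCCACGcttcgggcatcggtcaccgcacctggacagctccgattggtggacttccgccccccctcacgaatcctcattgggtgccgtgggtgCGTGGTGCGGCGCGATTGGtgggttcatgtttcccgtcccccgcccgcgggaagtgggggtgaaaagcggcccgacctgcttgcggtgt
XBP1: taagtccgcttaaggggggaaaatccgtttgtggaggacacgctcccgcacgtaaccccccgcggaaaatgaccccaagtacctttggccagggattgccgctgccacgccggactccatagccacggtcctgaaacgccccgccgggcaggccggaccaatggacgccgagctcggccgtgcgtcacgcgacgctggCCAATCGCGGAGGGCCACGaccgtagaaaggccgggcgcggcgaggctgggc
CRELD2: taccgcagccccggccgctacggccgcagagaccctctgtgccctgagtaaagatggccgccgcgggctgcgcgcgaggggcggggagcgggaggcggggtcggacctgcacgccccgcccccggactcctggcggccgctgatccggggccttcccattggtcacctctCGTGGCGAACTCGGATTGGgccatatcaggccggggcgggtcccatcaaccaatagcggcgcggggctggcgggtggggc
HERPUD1: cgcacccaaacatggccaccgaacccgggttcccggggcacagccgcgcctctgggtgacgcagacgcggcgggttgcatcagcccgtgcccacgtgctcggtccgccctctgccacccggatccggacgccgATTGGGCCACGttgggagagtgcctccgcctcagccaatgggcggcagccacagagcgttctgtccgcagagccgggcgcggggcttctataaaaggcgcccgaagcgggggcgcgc
SDF2L1: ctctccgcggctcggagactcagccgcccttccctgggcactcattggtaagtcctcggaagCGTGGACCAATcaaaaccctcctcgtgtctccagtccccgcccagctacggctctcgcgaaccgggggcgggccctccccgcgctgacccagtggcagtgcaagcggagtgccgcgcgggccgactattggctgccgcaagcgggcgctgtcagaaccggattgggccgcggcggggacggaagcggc

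Read against the start, the HSPA5 element lay at bases -66 to -48 and that of XBP1 at -52 to -34, both on the sense strand. HSP90B1 held 2 copies, at -194 to -176 on the sense and at -89 to -71 on the antisense strand. The ERSE of CRELD2 lay at -80 to -62 on the antisense strand, the ERSE-II of HERPUD1 at -117 to -107 on the sense strand and that of SDF2L1 at -188 to -178 on the antisense strand. How these 6 genes moved with treatment differed widely, as the following values show.

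In C4-2 with R1881 alone, compared per length of exon, HSPA5 was the highest of the 40 members at 593.0 CPM per kb, followed by HSP90B1 (306.6), the lectin chaperones CALR (231.3) and CANX (198.0) and the disulfide isomerase PDIA3 (184.4). The lowest were the oxidase ERO1B (3.954 CPM per kb) and the derlin DERL3 (0.4545). The 40 members together took 1.384% and 1.381% of all counts in the C4-2 R1881 libraries, 0.8019% and 0.7938% with namoline, 0.9048% and 0.8766% with TCE-5002, and 1.759% and 1.794% with the combination. Without HSPA5, the other 39 members took 1.142% and 1.139% with R1881, 0.7241% and 0.7186% with namoline, 0.8029% and 0.7789% with TCE-5002, and 1.094% and 1.104% with the combination. The lower share with each inhibitor alone was thus seen with and without HSPA5, whereas the higher share with both together rested on HSPA5, which went from 0.2426% and 0.242% to 0.6655% and 0.6902%. In the libraries labelled LNCaP the share of all 40 members was 1.278% and 1.379% with R1881 and 1.383% and 1.355% with the combination, which overlapped.

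**Figure D1:**
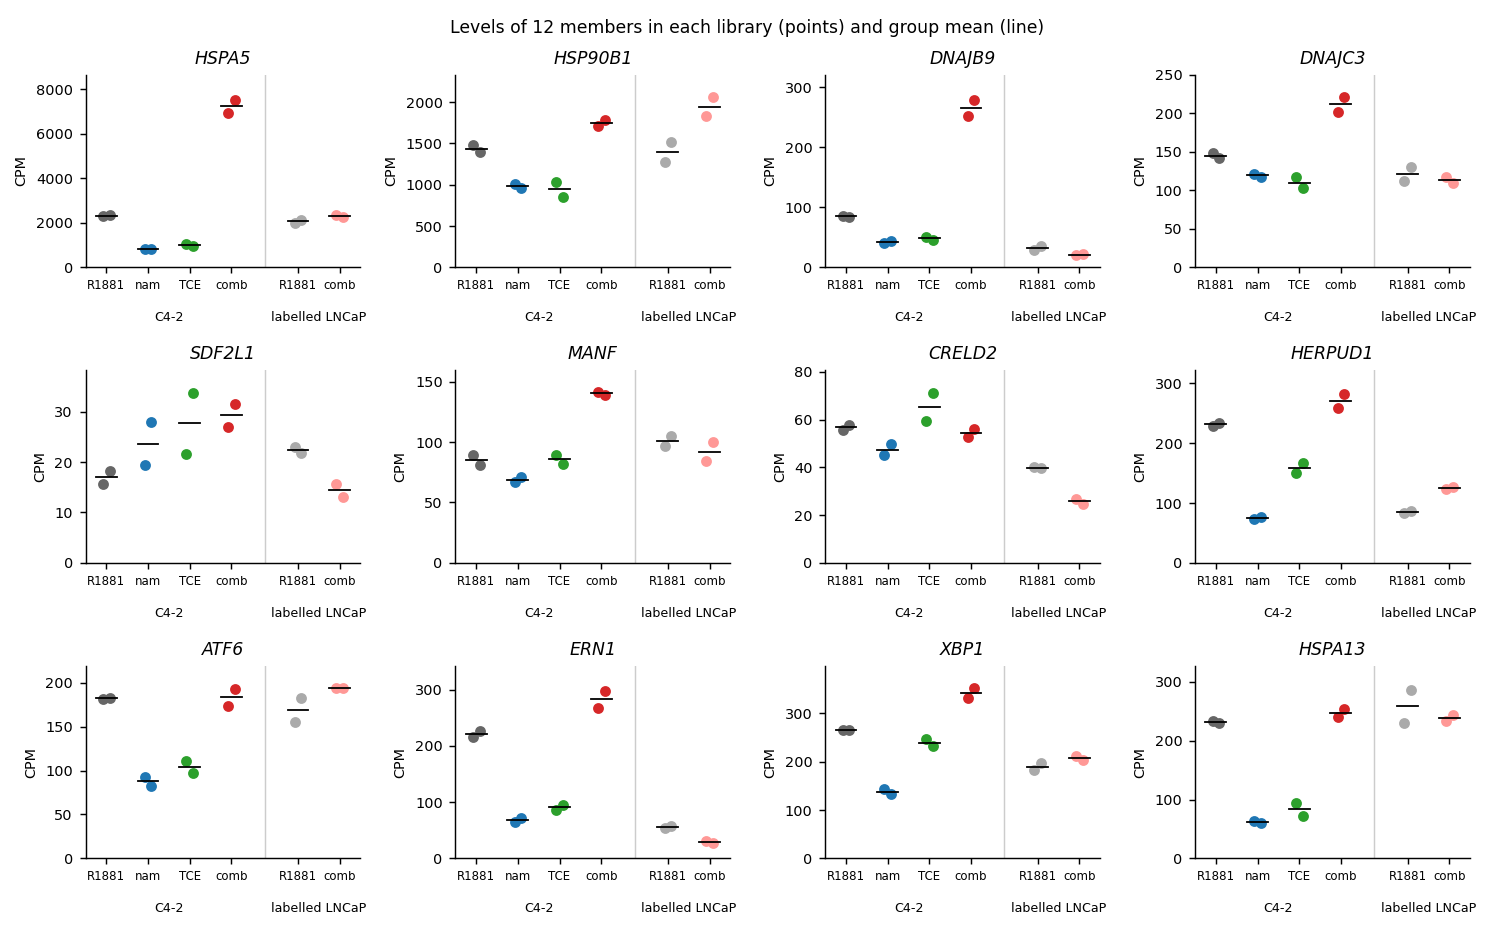
Levels (CPM, TMM-scaled over the 12 libraries, axes from 0) of 12 members in each library (points) and group (line, mean of 2). In C4-2, HSPA5 was at 2307 and 2328 CPM with R1881, 828.5 and 817.9 with namoline (nam), 1063 and 977.6 with TCE-5002 (TCE) and 6932 and 7528 with the combination (comb), while the libraries labelled LNCaP lay between 1997 and 2336 CPM.

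The first comparison asked what namoline alone did to this network in C4-2. With namoline 25 of 40 members fell and 1 rose (62.5% and 2.5% of members, against 16.3% lower and 18.7% higher among the 17702 genes tested). For genes with a mean of at least 10 CPM, a level that 39 members reach, the shares were 16.3% lower and 26.8% higher. The median change of the members was -0.39 on the log2 scale against -0.00 over all genes. By at least 2-fold, 10 members fell and 1 rose, against 6.88% and 5.17% of all genes. Lower members included all 4 sensors and transcription factors, 7 of 10 chaperones and co-chaperones, 7 of 11 degradation genes and 4 of 6 isomerases, but 1 of 5 translocon and membrane genes.

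HSPA5 (chromosome 9, 125234853 to 125241330, GRCh38 as in the files), the Hsp70 of the ER lumen and itself a brake on the sensors, was at 2307 and 2328 CPM with R1881 and 828 and 818 CPM with namoline (log2 -1.51 ± 0.12, adjusted p = 3.39e-07). ERN1 (chromosome 17, 64039142 to 64130819), the kinase and endonuclease that splices XBP1 mRNA, was at 216 and 227 CPM and 65.4 and 71.4 CPM (log2 -1.71 ± 0.11, adjusted p = 9.53e-08). HERPUD1 (chromosome 16, 56932048 to 56944863), an ER membrane protein of the degradation machinery, was at 229 and 234 CPM and 74.1 and 76.2 CPM (log2 -1.64 ± 0.11, adjusted p = 9.61e-08). In these 3 genes the namoline libraries lay far below both R1881 libraries. The largest fall was that of HSPA13, a microsomal Hsp70-like protein, from 234 and 229.9 CPM to 64.2 and 60.3 CPM (log2 -1.91 ± 0.13, adjusted p = 9.61e-08). GFPT1, the first enzyme of the hexosamine pathway that supplies sugar for glycoproteins, went from 635 and 639 CPM to 206 and 196 CPM (log2 -1.68 ± 0.11, adjusted p = 1.01e-07). These 2 with ERN1 and HERPUD1 were the largest falls by the rule for named genes.

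Of the other sensors and factors, ATF6 (chromosome 1, 161766294 to 161964070), a transcription factor released from the ER membrane by proteolysis, was at 182 and 182 CPM with R1881 and 93.2 and 83 CPM with namoline (log2 -1.06 ± 0.12, adjusted p = 9.87e-06). XBP1 (chromosome 22, 28794555 to 28800597), the factor made by ERN1 activity, was at 266 and 266 CPM and 143 and 133 CPM (log2 -0.96 ± 0.11, adjusted p = 9.81e-06). CREB3L2, a related membrane-bound factor, changed by -0.75 ± 0.11. All 4 factors were thus lower in both namoline libraries than in either R1881 library. Among chaperones, DNAJB9 (chromosome 7, 108569568 to 108574850), a J-domain partner of HSPA5 that represses ERN1, went from 85 and 84.5 CPM to 40.6 and 43.6 CPM (log2 -1.02 ± 0.11, adjusted p = 9.87e-06), and HSP90B1 (GRP94, the Hsp90 of the ER) from 1479 and 1396 CPM to 1006 and 961 CPM (log2 -0.56 ± 0.12, adjusted p = 0.00234). HYOU1, a nucleotide exchange factor for HSPA5, fell by 1.34 on the log2 scale, and DNAJB11, another J-domain partner, by 0.42.

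Smaller or no changes were seen in the induced secretory partners. MANF, a luminal protein that binds HSPA5, was at 89.3 and 81.2 CPM and 66.9 and 71 CPM (log2 -0.32 ± 0.11, adjusted p = 0.0351), a call that was lost with no filter on low counts. DNAJC3, an HSPA5 co-chaperone and inhibitor of EIF2AK3, was at 148 and 142 CPM and 122 and 118 CPM, which did not pass (log2 -0.29 ± 0.11, adjusted p = 0.052). Neither did CRELD2, an ER protein rich in EGF repeats, at 55.8 and 57.7 CPM and 45.2 and 49.7 CPM (log2 -0.27 ± 0.12, adjusted p = 0.1), nor SDF2L1, a partner of DNAJB11, at 15.6 and 18.3 CPM and 19.4 and 27.9 CPM (log2 0.47 ± 0.21, adjusted p = 0.0971). SDF2L1 was the chaperone-group member with a positive value. In the degradation group SEL1L, the scaffold of the SYVN1 ubiquitin ligase, fell by 1.25. OS9, a lectin that hands glycoproteins to that ligase, fell by 0.50 and SELENOS, a selenoprotein of the same machinery, by 0.52, while the ligase SYVN1 itself was at -0.30 ± 0.16 and did not pass. The oxidase ERO1B fell by 1.22. DERL3, the 1 member that rose, was present at 1.5 and 1.95 CPM with R1881 and 4.14 and 4.2 CPM with namoline (log2 1.28 ± 0.29, adjusted p = 0.0034), and this call was lost without replicate 1 of C4-2 R1881, when 16 members were lower. Of the 25 falls, 15 kept their call under each alternative run and 10 lost it in at least 1, of which 7 did so only when a library was left out. The summed level of the luminal markers was 6269 to 6531 CPM with namoline against 5476 to 5604 CPM with R1881, and the neuroendocrine markers summed to 13.74 to 13.92 CPM. Of the neuroendocrine markers 2 could be tested, 1 higher (log2 1.12) and 1 that did not pass (-0.47). Of 4 mesenchymal markers tested, 1 was higher and 0 lower. The part of these marker lists in the member changes was not tested.

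**Figure D2:**
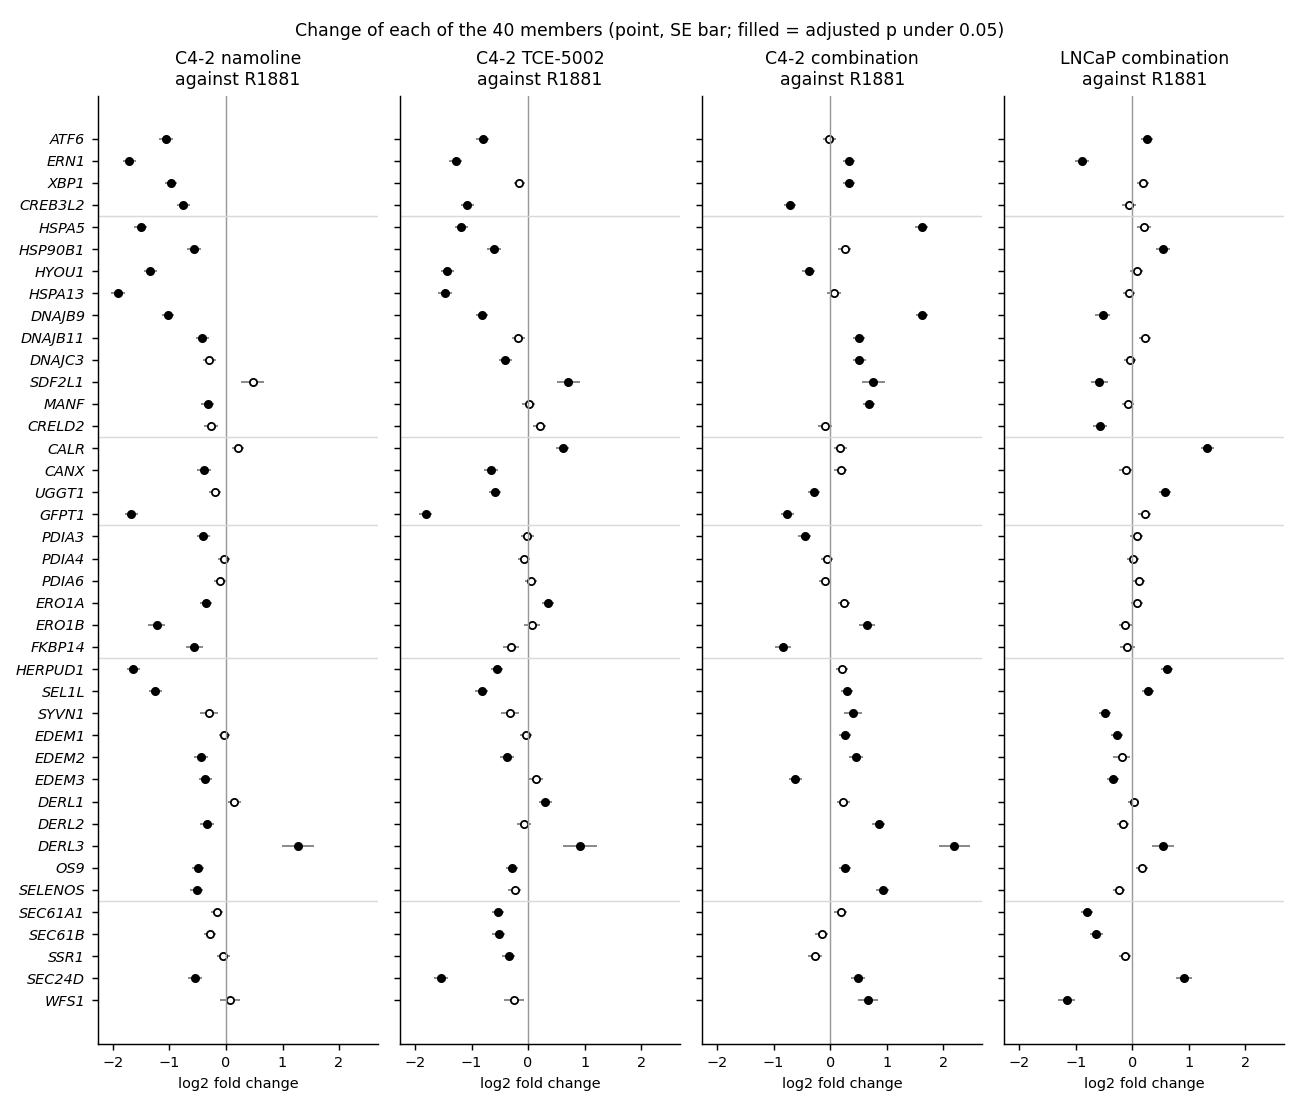
Log2 fold change against R1881 of each of the 40 members (points, SE as bars, filled where edgeR adjusted p was under 0.05), grouped by role from sensors (top) to translocon and membrane genes (bottom). In C4-2 namoline 25 members were lower and 1 higher, in C4-2 TCE-5002 20 and 5, in the C4-2 combination 7 and 19, and in LNCaP 10 and 8.

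The second comparison asked the same of TCE-5002 alone, against the same 2 R1881 libraries, so that both comparisons share their controls. With TCE-5002 20 of 40 members fell and 5 rose (50% and 12.5%, against 16.7% lower and 19.9% higher among all genes tested). Genes with a mean of at least 10 CPM had shares of 16.8% lower and 27.3% higher. The member median was -0.31 against -0.00 over all genes. By at least 2-fold 7 fell and 0 rose, against 6.8% and 5.04% of all genes. The translocon group held 4 falls of 5, and the isomerase group 0 falls of 6 with 1 rise, though the difference between the inhibitors was not tested.

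HSPA5 was at 1063 and 978 CPM with TCE-5002 (log2 -1.18 ± 0.11, adjusted p = 4.53e-06), below both R1881 libraries. ERN1 was at 86.3 and 95.5 CPM (log2 -1.28 ± 0.11, adjusted p = 1.9e-06), ATF6 at 111 and 97 CPM (log2 -0.80 ± 0.12, adjusted p = 0.00012) and DNAJB9 at 50.5 and 45.7 CPM (log2 -0.82 ± 0.11, adjusted p = 7.91e-05). All 4 were therefore lower, as was CREB3L2 (log2 -1.07 ± 0.11), whereas XBP1 stayed at 246 and 233 CPM and did not pass (log2 -0.15 ± 0.10, adjusted p = 0.277). The largest falls by the rule were those of GFPT1 to 197 and 167 CPM (log2 -1.81 ± 0.11, adjusted p = 2.37e-07), SEC24D, a cargo-selecting subunit of the COPII coat, from 107 and 111 CPM to 39.6 and 35.7 CPM (log2 -1.54 ± 0.12, adjusted p = 1.09e-06), HSPA13 to 94.2 and 72.8 CPM (log2 -1.47 ± 0.13, adjusted p = 1.67e-06) and HYOU1 from 755 and 769 CPM to 266 and 301 CPM (log2 -1.43 ± 0.12, adjusted p = 1.03e-06).

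HERPUD1 was at 149.9 and 166 CPM (log2 -0.55 ± 0.11, adjusted p = 0.00119) and HSP90B1 at 1039 and 853 CPM (log2 -0.60 ± 0.12, adjusted p = 0.00139), both lower than in either R1881 library. DNAJC3, at 117 and 102 CPM, passed (log2 -0.40 ± 0.11, adjusted p = 0.0114) but not when only the 4 libraries compared were fitted (adjusted p = 0.0533). MANF at 89.6 and 81.9 CPM (log2 0.01 ± 0.11, adjusted p = 0.966) and CRELD2 at 59.5 and 71.1 CPM (log2 0.20 ± 0.12, adjusted p = 0.209) did not pass. Of the members that rose, CALR, a soluble lectin chaperone that also buffers calcium, went from 605 and 651 CPM to 952 and 964 CPM (log2 0.61 ± 0.11, adjusted p = 0.000623) and kept its call under each alternative. SDF2L1 at 21.6 and 33.7 CPM (log2 0.71 ± 0.21, adjusted p = 0.0152), whose replicates differed over 1.5-fold, lost its call after correction for GC content (0.25, adjusted p = 0.0762). ERO1A, which reoxidises disulfide isomerases, went from 99.3 and 90.2 CPM to 122 and 121 CPM (log2 0.36 ± 0.11, adjusted p = 0.0173) and DERL1, a derlin, from 59.4 and 66.3 CPM to 80.1 and 74.9 CPM (log2 0.31 ± 0.11, adjusted p = 0.0445). Both lost their calls when only the 4 libraries compared were fitted, where 2 members were higher. DERL3, the fifth rise, was at 2.38 and 4.08 CPM (0.92 ± 0.29). Without replicate 1 of C4-2 R1881, 1 member was higher and 16 were lower. The luminal markers summed to 8167 to 8453 CPM with TCE-5002, above the R1881 and namoline groups, and the neuroendocrine markers to 18.66 to 37.43 CPM against 8.779 to 8.952 CPM with R1881. Of the neuroendocrine markers 2 could be tested, 1 higher (log2 2.31) and 1 that did not pass (-0.83), so the sum does not show a change of the whole list. Of 4 mesenchymal markers tested, 0 passed. The part of these marker lists in the member changes was not tested.

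With both inhibitors more members rose than fell. Against R1881, 19 of 40 members rose and 7 fell (47.5% and 17.5%, against 24.8% higher and 25.6% lower among all genes tested). Among genes with a mean of at least 10 CPM 31.6% were higher and 25.1% lower. The member median was 0.25 against -0.03 over all genes. By at least 2-fold 3 rose (HSPA5, DNAJB9 and DERL3) and 0 fell, against 8.87% and 12.8% of all genes, so the large changes were few. The rises were 6 of 10 chaperones and co-chaperones, 8 of 11 degradation genes, 2 of 4 sensors, 2 of 5 translocon and membrane genes and 1 of 6 isomerases, with 0 of 4 in lectin-guided folding.

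HSPA5 reached 6932 and 7528 CPM against 2307 and 2328 CPM with R1881, and DNAJB9 252 and 279 CPM against 85 and 84.5 CPM. Both combination libraries lay about 3-fold above the R1881 libraries in each gene (fold 3.07 for HSPA5, log2 1.62 ± 0.12, adjusted p = 1.1e-07, and fold 3.08 for DNAJB9, log2 1.62 ± 0.11, adjusted p = 6.7e-08). SELENOS went from 65.7 and 68.8 CPM to 127 and 134 CPM (log2 0.93 ± 0.11, adjusted p = 1.32e-05) and DERL2, a derlin of the retrotranslocation channel, from 58.4 and 58.1 CPM to 104 and 110.3 CPM (log2 0.86 ± 0.12, adjusted p = 4.56e-05), completing the 4 largest rises among members with at least 10 CPM. DERL3 rose from 1.5 and 1.95 CPM to 8.24 and 7.64 CPM (log2 2.19 ± 0.27, adjusted p = 1.59e-05), the largest log2 value but below 10 CPM in each library. DNAJB9 overlaps THAP5 and PNPLA8, and DERL2 overlaps MIS12; reads were counted with no strand option, so those overlaps cannot be separated. The same holds for SEC61A1 with RUVBL1, SYVN1 with FAU and MRPL49, PDIA3 with ELL3 and PDIA6 with ATP6V1C2. It also holds for DERL3 with SMARCB1, DERL1 with TBC1D31, DNAJB11 with TBCCD1, CRELD2 with ALG12 and HSP90B1 with UQCC6. Further overlaps are not listed.

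Moderate rises were seen for MANF at 141 and 139 CPM (log2 0.69 ± 0.11, adjusted p = 0.000132), DNAJC3 at 202 and 221 CPM (log2 0.52 ± 0.11, adjusted p = 0.00136), and DNAJB11 (0.51 ± 0.11). SDF2L1 at 27 and 31.5 CPM also passed (log2 0.77 ± 0.21, adjusted p = 0.00714). ERN1 at 268 and 298 CPM (log2 0.33 ± 0.11, adjusted p = 0.0204) and XBP1 at 332 and 352 CPM (log2 0.34 ± 0.10, adjusted p = 0.015) were higher than in both R1881 libraries by a small margin. ATF6 did not pass, at 174 and 193 CPM (log2 -0.01 ± 0.11, adjusted p = 0.927), nor did HSPA13 at 240.0 and 253 CPM (log2 0.06 ± 0.12, adjusted p = 0.688). HSP90B1 at 1707 and 1783 CPM (log2 0.25 ± 0.12, adjusted p = 0.0904), HERPUD1 at 259 and 283 CPM (log2 0.20 ± 0.11, adjusted p = 0.128) and CRELD2 at 52.7 and 55.9 CPM (log2 -0.09 ± 0.12, adjusted p = 0.573) did not pass. When a library was left out, the call of XBP1 was lost in each of the 4 fits without 1 of the libraries compared (adjusted p from 0.0606 to 0.136), that of ERN1 in 3 and that of SDF2L1 in 2, so of the 6 members whose promoters are shown above, HSPA5 alone rose in each fit.

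The 7 falls were led by FKBP14, a proline isomerase, from 39.6 and 36.7 CPM to 20.4 and 23.2 CPM (log2 -0.83 ± 0.15, adjusted p = 0.000316), GFPT1 at 378 and 388 CPM (log2 -0.76 ± 0.11, adjusted p = 6.59e-05), CREB3L2 from 202 and 206 CPM to 126 and 128 CPM (log2 -0.71 ± 0.11, adjusted p = 0.000104) and EDEM3, a mannosidase-like protein that marks glycoproteins for degradation, from 183 and 185 CPM to 132 and 113 CPM (log2 -0.61 ± 0.12, adjusted p = 0.000676). PDIA3 (-0.45), HYOU1 (-0.38) and UGGT1 (-0.29), the glucosyltransferase that senses misfolded glycoproteins, fell less, and UGGT1 lost its call with another scaling of the libraries (RLE). The count of calls leaned on single libraries: without replicate 1 of C4-2 R1881 it was 10 higher and 4 lower, and without replicate 2 of the combination 11 and 4. The rises of HSPA5, DNAJB9, DNAJB11, DNAJC3, MANF, ERO1B, DERL2, DERL3 and SELENOS and the falls of CREB3L2, GFPT1, FKBP14 and EDEM3 kept their calls under each alternative run. Over the same libraries the summed level of the 14 luminal markers was 3036 to 3165 CPM with the combination against 5476 to 5604 CPM with R1881, and 10 of the 14 were lower. The neuroendocrine markers summed to 23.36 to 23.63 CPM, and 2 of them could be tested, 1 higher (log2 2.04) and 1 that did not pass (-0.915). Of 4 mesenchymal markers tested, 2 were higher and 2 lower, with values from -1.58 to 3.58. The part of these marker lists in the member changes was not tested.

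Set directly against each single inhibitor, leaving the R1881 libraries out of the contrast, the combination held most of the network at a higher level. Against namoline 27 of 40 members were higher and 0 lower in edgeR's test (67.5%, against 26.9% higher and 29% lower among all genes), with a median of 0.79 against -0.04 over all genes. Against TCE-5002, 29 were higher and 4 lower (72.5% and 10%, against 26.4% and 28.7%), with a median of 0.70 against -0.04. For genes with a mean of at least 10 CPM the shares were 30.4% and 33.8% against namoline and 30.6% and 32.7% against TCE-5002. HSPA5 differed by 3.12 ± 0.12 from namoline and by 2.80 ± 0.12 from TCE-5002, and DNAJB9 by 2.65 ± 0.12 and 2.44 ± 0.11. ERN1 differed by 2.04 ± 0.11 and 1.61 ± 0.11, ATF6 by 1.05 ± 0.12 and 0.79 ± 0.12, and SEL1L by 1.54 ± 0.11 and 1.12 ± 0.11. The 4 members lower than with TCE-5002 were CALR (-0.43), PDIA3 (-0.43), FKBP14 (-0.54) and EDEM3 (-0.76). By DESeq2 0 of 40 were lower than with namoline, and in edgeR's test 0 were at an unadjusted p under 0.05. After correction for GC content 3 were lower, and 2 when only those 4 libraries were fitted.

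The full cross of the inhibitors in C4-2 allowed a test of whether the combination departed from the sum of the single effects. The interaction, the combination minus both single changes on the log2 scale, was positive for 27 of 40 members and negative for 1 (67.5% and 2.5%). Among all genes tested the shares were 25.6% and 27.9%, and among those with a mean of at least 10 CPM 28.1% and 35.1%. The member median was 1.07 against -0.01 over all genes. Of the 27 positive values, 23 were above 1, against 2959 of the 17702 genes tested that passed with at least 1. The sum of the single changes was below 0 for 36 of 40 members, with a median of -0.76, and no share over all genes is given for it. The observed combination lay above that sum in 32 members, passed or not, against 8775 of the 17702 genes tested.

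HSPA5 had the largest interaction of the 40, 4.31 ± 0.17 with adjusted p = 5.02e-10. The sum of its single changes was -2.69 and the combination stood at 1.62. DNAJB9 followed at 3.46 ± 0.16 and HSPA13 at 3.45 ± 0.18 (adjusted p = 1.93e-09 and 3.31e-09). Of these 2, DNAJB9 rose over R1881 with the combination while HSPA13 did not pass in that comparison. All 4 sensors and factors passed, with ERN1 at 3.32 ± 0.16, ATF6 at 1.85 ± 0.16, XBP1 at 1.45 ± 0.15 and CREB3L2 at 1.12 ± 0.16. GFPT1 at 2.73 ± 0.16 and SEC24D at 2.58 ± 0.17 were also far from additive. In the degradation group HERPUD1 was at 2.39 ± 0.15 and SEL1L at 2.36 ± 0.16. HSP90B1 was at 1.42 ± 0.17, DNAJC3 at 1.21 ± 0.16 and MANF at 1.01 ± 0.16, all past the threshold. The 27 included 25 members whose call was kept under each alternative, UGGT1 and WFS1 being the others.

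Departure from additivity did not extend to each branch of the folding machinery. Among the 6 isomerases and oxidases only ERO1B passed (1.80 ± 0.21), and PDIA3 (-0.03 ± 0.16), PDIA4 (0.05 ± 0.15), PDIA6 (-0.03 ± 0.15), ERO1A (0.25 ± 0.15) and FKBP14 (0.02 ± 0.21) did not. CALR was the 1 negative interaction, -0.65 ± 0.15 with adjusted p = 0.00257: it was at 695 and 779.6 CPM with namoline, 952 and 964 CPM with TCE-5002 and 710.1 and 739.5 CPM with both, so with both it was lower than with TCE-5002 alone (log2 -0.43 ± 0.11). SDF2L1 (-0.42 ± 0.29) and CRELD2 (-0.02 ± 0.17) did not pass, and after correction for GC content both had positive values that passed edgeR's test (0.46, adjusted p = 0.0174, and 0.42, adjusted p = 0.00191). PDIA4 did not pass in any of the 4 comparisons against R1881, with values of -0.04, -0.07, -0.06 and, labelled LNCaP, 0.02. Members with an ERSE or ERSE-II had a median interaction of 1.44 (7 of 10 positive, 1 negative) and the 25 members with a promoter and neither element 1.04 (19 of 25 positive), a description with no test.

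**Figure D3:**
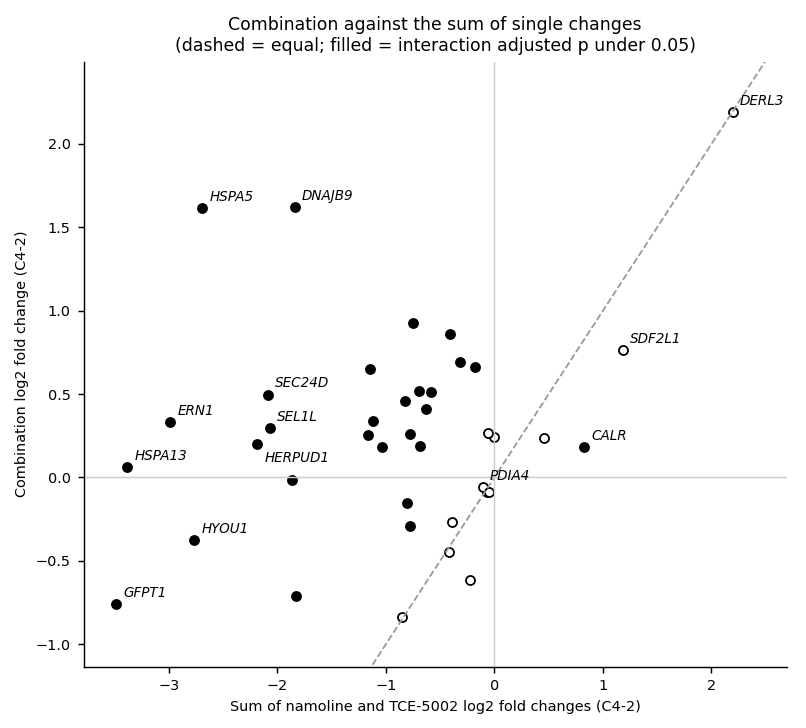
Combination log2 fold change in C4-2 (vertical) against the summed changes of the single inhibitors (horizontal) for the 40 members, where the dashed line marks equality and filled points passed the interaction test. HSPA5 sits at -2.69 and 1.62, and 32 of 40 members lie above the line.

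The same combination was then examined in the libraries labelled LNCaP. There 8 of 40 members rose and 10 fell (20% and 25%, against 28% higher and 28.2% lower among the 17565 genes tested). Among genes with a mean of at least 10 CPM 35.1% were higher and 30.1% lower, so both member shares were below either background. The member median was -0.05 against -0.00 over all genes. By at least 2-fold 1 rose and 1 fell, against 7.44% and 11.3%. Without the library whose header disagrees with its title the counts were also 8 and 10.

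HSPA5 was at 1997 and 2144 CPM with R1881 and 2336 and 2270 CPM with the combination, which did not pass (log2 0.21 ± 0.12, adjusted p = 0.139, and 0.19 without the library whose header and title disagree). CALR rose most, from 553 and 550.3 CPM to 1370 and 1295 CPM (log2 1.33 ± 0.12, adjusted p = 1.91e-11, and 1.29 without that library). SEC24D at 18.2 and 25.9 CPM and 40.9 and 39.4 CPM (log2 0.92 ± 0.14, adjusted p = 9.97e-07), HERPUD1 at 83.4 and 86.8 CPM and 123 and 126 CPM (log2 0.61 ± 0.10, adjusted p = 5.92e-06) and UGGT1 at 173 and 171 CPM and 242 and 250.3 CPM (log2 0.58 ± 0.10, adjusted p = 1.42e-05) were the next largest rises. Without that library they were 0.89, 0.62 and 0.59. HSP90B1 rose as well, from 1272 and 1519 CPM to 1826 and 2061 CPM (log2 0.54 ± 0.12, adjusted p = 0.000452, and 0.62 without it), and ATF6 from 155 and 183 CPM to 194 and 194 CPM passed narrowly (log2 0.25 ± 0.11, adjusted p = 0.0386, and 0.25 without it) and lost its call under 6 of the alternatives, among them DESeq2 and the correction for GC content.

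The falls were led by WFS1, an ER membrane protein lost in Wolfram syndrome, from 34.3 and 42 CPM to 19.1 and 13.9 CPM (log2 -1.16 ± 0.15, adjusted p = 4.04e-08, and -1.40 without the same library). ERN1 fell from 54 and 58 CPM to 31.5 and 26.8 CPM (log2 -0.89 ± 0.12, adjusted p = 1.73e-07), and the translocon subunits SEC61A1 from 631 and 637 CPM to 381 and 319 CPM (log2 -0.80 ± 0.11, adjusted p = 3.06e-07) and SEC61B from 76.8 and 85.7 CPM to 48.1 and 52.5 CPM (log2 -0.63 ± 0.11, adjusted p = 1.08e-05). Without that library the 3 changes were -1.01, -0.94 and -0.57. DNAJB9 went down from 28.3 and 35.1 CPM to 19.9 and 22.4 CPM (log2 -0.52 ± 0.14, adjusted p = 0.00142, and -0.45 without the same library), and this call was lost without replicate 2 of LNCaP R1881 (-0.36, adjusted p = 0.103). CRELD2 at 40.1 and 39.8 CPM and 26.8 and 24.8 CPM (log2 -0.57 ± 0.12, adjusted p = 0.000183, and -0.63 without that library) also fell, a call lost with the GC offset and replicate block together (-0.25, adjusted p = 0.0571). SDF2L1 at 23 and 21.8 CPM and 15.7 and 13.2 CPM was lower (log2 -0.58 ± 0.15, adjusted p = 0.001, and -0.71 without that library) but had a value of 0.12 after correction for GC content (adjusted p = 0.434). XBP1 at 182 and 196 CPM and 213 and 204 CPM (log2 0.20 ± 0.10, adjusted p = 0.105), DNAJC3 at 112 and 130.3 CPM and 118 and 109 CPM (log2 -0.04 ± 0.11, adjusted p = 0.755) and MANF at 96.8 and 105 CPM and 84.3 and 99.8 CPM (log2 -0.07 ± 0.11, adjusted p = 0.598) did not pass. Without that library they were at 0.16, -0.10 and 0.04. After correction for GC content 7 members were higher and 17 lower, so the balance of the member calls depended on it. No share over all genes is given for that correction, so these counts cannot be set against a background. Without replicate 1 of LNCaP R1881 5 members were higher. Luminal markers summed to 523.8 to 664.9 CPM with the combination against 1076 to 1166 CPM with R1881, and 11 of 14 fell, while neuroendocrine markers summed to 173.8 to 179.6 CPM against 188.5 to 190.1 CPM. Of 10 mesenchymal markers tested, 1 was higher and 3 lower (10% and 30%, against 28% and 28.2% of all genes). The part of these marker lists was not tested.

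A direct test of the difference in the combination effect, C4-2 minus LNCaP, passed for 29 of 40 members, 17 higher in C4-2 and 12 lower (42.5% and 30%). Among the 19763 genes tested the shares were 21.7% and 25.9%, and among those with a mean of at least 10 CPM 30.8% and 34.3%. The share of lower members was thus not above that of genes at such levels. The member median was 0.14 against -0.10 over all genes. Higher values in C4-2 were found for 6 of 10 chaperones and co-chaperones and 6 of 11 degradation genes, and lower values for 3 of 4 genes of lectin-guided folding. DNAJB9 had the largest difference, 2.09 ± 0.15 with adjusted p = 6.83e-11, followed among members with at least 10 CPM by WFS1 at 1.77 ± 0.18 and HSPA5 at 1.35 ± 0.12 (adjusted p = 3.22e-08 and 5.09e-09). WFS1 rose in C4-2, from 33.4 and 38 CPM to 54.8 and 60 CPM, and fell in the libraries labelled LNCaP. At the other end stood CALR at -1.20 ± 0.12, GFPT1 at -1.03 ± 0.13 and UGGT1 at -0.91 ± 0.12 (adjusted p = 1.23e-08, 5.46e-07 and 1.14e-06). XBP1 (0.09 ± 0.11) and HSPA13 (0.07 ± 0.13) did not pass. Apart from fits that leave out a library, 4 of the 12 lower calls and 1 of the 17 higher were lost under some alternative. With the correction for GC content the lower ones, ATF6, HSP90B1, EDEM3 and SEC24D, were at -0.06, -0.07, -0.04 and -0.20. The higher one, CRELD2, was at 0.09. The counts of 17 and 12 were the same without the library whose header disagrees with its title, and 7 were lower without replicate 1 of LNCaP R1881. Line and marker profile cannot be told apart here, since the libraries labelled LNCaP differ from C4-2 in both.

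**Figure D4:**
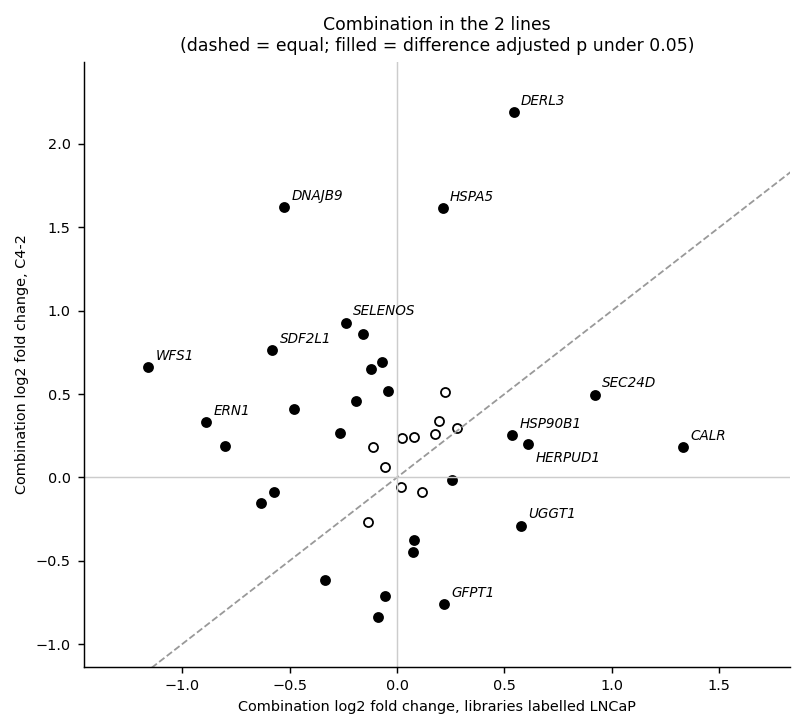
Combination log2 fold change of the 40 members in C4-2 (vertical) against the libraries labelled LNCaP (horizontal), where the dashed line marks equality and filled points passed the test of the difference. DNAJB9, HSPA5 and WFS1 lie above the line by 2.09, 1.35 and 1.77 and CALR lies 1.20 below it.

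Before any inhibitor, members leaned towards lower levels in the libraries labelled LNCaP than in C4-2. With R1881 alone, 9 members were higher and 21 lower in the libraries labelled LNCaP than in C4-2 (22.5% and 52.5%, against 39% and 37.8% of all genes tested). Genes with a mean of at least 10 CPM had shares of 40.9% and 42.7%. Counting both directions, members thus passed no more often than all genes, and it was the lean towards lower levels that differed. The member median was -0.22 against -0.00 over all genes. HSPA5 did not pass (-0.19 ± 0.09, adjusted p = 0.0516), and HSP90B1 (-0.07 ± 0.10) and ATF6 (-0.13 ± 0.09) did not pass either. ERN1, at 54 and 58 CPM against 216 and 227 CPM, was lower (-2.01 ± 0.09), as were SEC24D (-2.34 ± 0.12), GFPT1 (-1.90 ± 0.09), HERPUD1 (-1.47 ± 0.08), DNAJB9 (-1.45 ± 0.10) and CREB3L2 (-1.21 ± 0.11). Higher were ERO1B (1.53 ± 0.10) and CANX (1.17 ± 0.09), the membrane-bound lectin chaperone, at 2610 and 3044 CPM against 1244 and 1225 CPM. Starting levels of ERN1 and DNAJB9 in the libraries labelled LNCaP were thus below those that C4-2 had with either single inhibitor, and both went lower still with the combination.

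Other genes of the secretory pathway, from lists related to the members, showed how far these changes reached. Of 16 genes of the ATF4 branch, 16 fell with namoline (100%, against 16.3% of all genes) and 15 with TCE-5002 (93.8%, against 16.7%), with medians of -2.08 and -1.23, and 14 had a positive interaction (87.5%, against 25.6%, median 2.81). The list was chosen with results of these libraries known, so its direction is not independent evidence. ATF4, the translationally induced factor of the EIF2AK3 branch, was at 723 and 754 CPM with R1881, 334 and 301 CPM with namoline, 417 and 457 CPM with TCE-5002 and 488 and 543 CPM with the combination, in which it fell by 0.54 on the log2 scale (SE 0.11). DDIT3 (CHOP), its pro-apoptotic target, was at 386 and 364 CPM, 20.5 and 17.3 CPM, 94.4 and 97 CPM and 803 and 827 CPM in the same order (log2 1.09 ± 0.11, adjusted p = 2.67e-06 for the combination), though it overlaps MARS1. In the combination the list split, with 5 higher and 7 lower (31.2% and 43.8%, against 24.8% and 25.6%, median -0.21), so ATF4 and the list as a whole were not, like HSPA5, above the R1881 level.

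Of the sensor and transducer list, 8 of 10 genes passed the filter in C4-2. Among them EIF2AK3, the kinase that activates ATF4 translation, was at 34.9 and 37.3 CPM with R1881, 38.1 and 37.7 CPM with namoline and 30.9 and 28.5 CPM with TCE-5002, neither of which passed, and at 44.8 and 48.9 CPM with the combination (log2 0.35 ± 0.12, adjusted p = 0.0248). CREB3L4, an ER-anchored factor of prostate epithelium, did not pass with either single inhibitor and went from 115 and 124 CPM to 48.7 and 40.8 CPM with both (log2 -1.44 ± 0.12, adjusted p = 6.17e-07). It was thus opposite in direction to HSPA5 in the combination. Of 22 further folding enzymes 3 rose and 7 fell with namoline (13.6% and 31.8%, against 18.7% and 16.3% of all genes), with a median of -0.00. With TCE-5002 4 rose and 4 fell (18.2% each, against 19.9% and 16.7%, median -0.06), which is near the background. With the combination the counts were 6 and 10 (27.3% and 45.5%, against 24.8% and 25.6%, median -0.02). P4HB, the archetypal disulfide isomerase, was at 874 and 958 CPM with R1881 and 854 and 949 CPM with the combination (log2 -0.05 ± 0.12, adjusted p = 0.757). The values resemble those of PDIA4 and PDIA6 in not passing with any C4-2 treatment.

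In the remaining lists the single inhibitors gave shares near or below the background in most cases. Of 22 other degradation genes 5 rose and 3 fell with namoline (22.7% and 13.6%, against 18.7% and 16.3%) and 6 and 4 with TCE-5002 (27.3% and 18.2%, against 19.9% and 16.7%). With the combination 12 rose and 0 fell (54.5% and 0%, against 24.8% and 25.6%). Medians of this list were 0.14, 0.05 and 0.39, with no test of the list. Of 23 genes of the translocon and N-glycosylation, 0 rose and 3 fell with namoline (0% and 13%), 4 and 5 with TCE-5002 (17.4% and 21.7%) and 9 and 1 with the combination (39.1% and 4.35%), against the same background, with medians of -0.11, -0.21 and 0.20. Of 18 genes of COPII and ER exit the counts were 1 and 2 (5.56% and 11.1%), 2 and 5 (11.1% and 27.8%), and 7 and 1 (38.9% and 5.56%), with medians of 0.04, -0.09 and 0.27. With the combination, LNCaP libraries had 6 higher and 6 lower of the other degradation genes (27.3% each), and 6 and 7 without the library whose header and title disagree. Both shares are at the background of 28% and 28.2% of all genes. Translocon and N-glycosylation genes numbered 10 higher and 6 lower there (43.5% and 26.1%), with the same counts without that library. COPII and ER exit genes numbered 7 higher and 3 lower (38.9% and 16.7%), and 6 and 4 without it. Among genes with a mean of at least 10 CPM, 35.1% rose in these LNCaP libraries and 31.6% in the C4-2 combination. Shares of 38.9% to 43.5% in these 2 lists were not far above that background, and no shared rise is read from them. The members' falls under each inhibitor alone (medians -0.39 and -0.31) therefore stood beside medians near 0 in the folding, degradation and export lists. Translocon and N-glycosylation genes were in between, at -0.11 and -0.21. The sensor and transducer list was at 0.03 with namoline and -0.15 with TCE-5002, and the ATF4 branch had lower medians than the members.

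**Figure D5:**
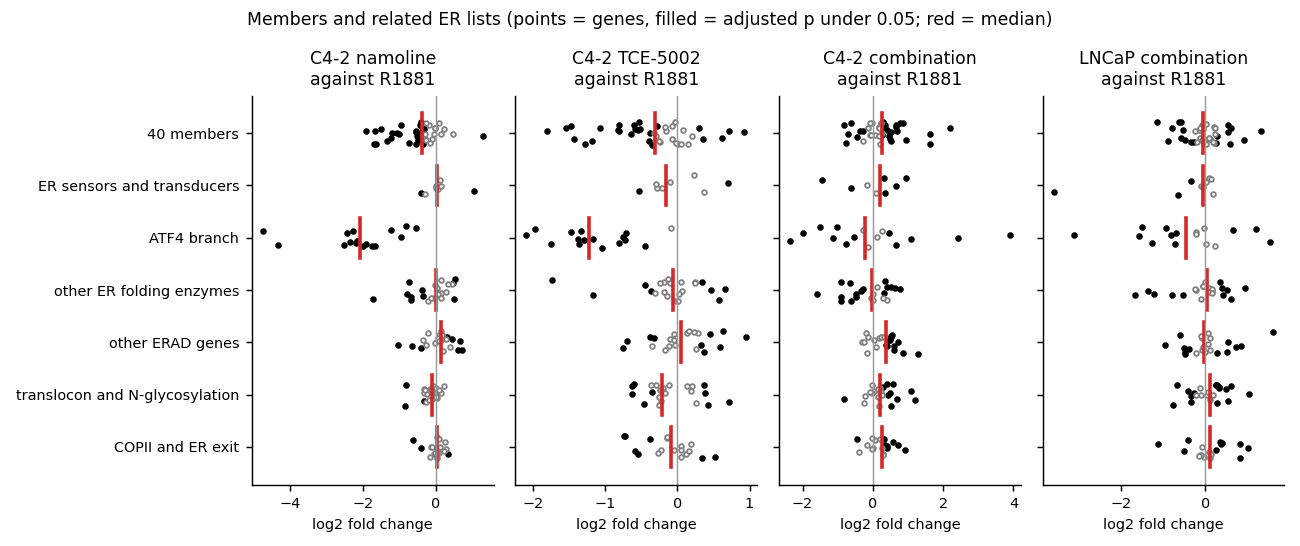
Log2 fold change against R1881 of the 40 members and of 6 related lists (rows) in the 4 comparisons (panels), where each point is a gene, filled points passed at edgeR adjusted p under 0.05 and red bars mark medians. The ATF4 branch has medians of -2.08, -1.23, -0.21 and -0.47 from left to right, and the members -0.39, -0.31, 0.25 and -0.05. The horizontal range differs between panels.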

How the data were processed

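RNA-Seq counts per gene were deposited by the authors as 1 table per library. Per the file headers and the submitters' processing notes, reads were trimmed with Trim Galore and cutadapt, aligned with STAR to GRCh38 and counted over Ensembl 83 exons with featureCounts 1.5.0-p1 with no strand option. Groups came from the sample titles; a protocol label that describes siRNA work was not used.

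Counts were tested in R 4.3.3 with edgeR 4.0.16 (filterByExpr, TMM, quasi-likelihood F test, Benjamini-Hochberg adjustment over all genes tested). The 8 C4-2 libraries formed 1 fit, the 4 labelled LNCaP another, and the R1881 and combination libraries of both lines a joint fit of 8. SE was the log2 fold change divided by the square root of F. Library totals bound the precision of low genes. Scripts were tested on simulated data. Alternatives were RLE scaling, no filter, DESeq2 1.42.0, a replicate block, a GC offset, fits of only the groups compared and leaving out each library.

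Members and lists were chosen with earlier results of these data known. Values by library were given for 11 members in every case, for the 4 largest rises and falls with at least 10 CPM against R1881 (3 each way for the interaction and the line difference) and for EIF2AK3, ATF4, DDIT3, P4HB and CREB3L4. Promoters were those of RefSeq for GRCh38.p14, and amino acid sequences were not analysed here.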

Additional observations from a re-analysis of the deposited data

Results flagged for a closer look

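For 9 of 40 members the effect of the combination differed between C4-2 and the libraries labelled LNCaP by at least 2-fold in edgeR's direct test. In C4-2 7 were higher and 2 lower, against 2257 and 2746 of the 19763 genes tested. Together the 9 were thus no larger a share than among all genes. On the log2 scale (± SE), C4-2 minus LNCaP, DNAJB9 differed by 2.09 ± 0.15 (adjusted p = 6.83e-11), WFS1 by 1.77 ± 0.18 (adjusted p = 3.22e-08) and DERL3, which is below 10 CPM in each library, by 1.60 ± 0.29 (adjusted p = 8.2e-05). HSPA5 differed by 1.35 ± 0.12 (adjusted p = 5.09e-09), SDF2L1 by 1.30 ± 0.18 (adjusted p = 3.17e-06), ERN1 by 1.17 ± 0.13 (adjusted p = 9.86e-08) and SELENOS by 1.11 ± 0.13 (adjusted p = 1.29e-07). In the other direction stood CALR at -1.20 ± 0.12 (adjusted p = 1.23e-08) and GFPT1 at -1.03 ± 0.13 (adjusted p = 5.46e-07). Without the LNCaP combination library whose header names namoline only, HSPA5 was at 1.36, DNAJB9 at 2.00, WFS1 at 2.00 and CALR at -1.18.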

How the results depend on the processing

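Of 206 recomputed counts of members, 179 stayed within 1.5 times the reported count and 27 moved. Members higher with namoline (1) were 2 with no filter, with the replicate block and with only the groups compared, and 0 to 2 when a library was left out; those lower (25) were 16 to 18. Members higher with TCE-5002 (5) were 3 by DESeq2, 2 with only the groups compared and 1 to 5 with a library left out. For the combination in C4-2, leaving out a library gave 10 to 13 higher and 4 to 5 lower. Members lower in the combination than with namoline (0) were 1 with the block, 3 with the GC offset, alone or with the block, and 2 with only the groups compared. Negative interactions (1) were 2 with the block, 2 with the GC offset, 3 with both and 1 to 2 with a library left out. In LNCaP, members higher (8) were 5 to 8 with a library left out, and members lower (10) were 17 with the GC offset and 16 with offset and block. Members with a lower effect in C4-2 than in LNCaP (12) were 7 to 12. No share over all genes is given beside these recomputed counts, and the cause of the moves was not tested.

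Of 2781 recomputed values of named members, 2532 kept direction and side of the threshold, 97 newly passed, 146 no longer passed and 6 reversed. The 6 were the interactions of CRELD2 (0.42 with the GC offset, 0.42 with offset and block) and SDF2L1 (0.46 and 0.46) and SDF2L1 in LNCaP (0.12 and 0.12). Among the 2532, 57 changed sign while passing in neither fit, the largest at a size of 0.226. Same-numbered deviations correlated over 0.1 in 5 of 6 pairs of C4-2 groups (up to 0.44), at -0.02 for namoline with the combination and at 0.0622 within LNCaP. Not every pair was over 0.1 and no label ties the numbers to a shared culture, so the numbers were not taken as a pairing. With 2 libraries a group, small changes rest on few degrees of freedom.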

Other observations

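Within the ATF4 branch, a pair of genes chosen after their values were seen rose in the C4-2 combination, in which ATF4 fell. ATF3 was at 122 and 124 CPM with R1881, 37 and 40.7 CPM with namoline, 79.6 and 70.9 CPM with TCE-5002 and 1797 and 1936 CPM with the combination (log2 3.90 ± 0.12, edgeR adjusted p = 6.32e-11). PPP1R15A was at 19.3 and 20.6 CPM with R1881, 3.67 and 4.68 CPM with namoline, 6.95 and 9.22 CPM with TCE-5002 and 102 and 115 CPM with the combination (log2 2.42 ± 0.15, edgeR adjusted p = 2.86e-08). ATF3 is a stress-induced transcription factor and PPP1R15A (GADD34) directs the dephosphorylation of eIF2 alpha. In the libraries labelled LNCaP the combination gave log2 values of -0.23 ± 0.11 for ATF3 and 0.65 ± 0.12 for PPP1R15A (edgeR adjusted p = 0.0643 and 1.62e-05). Without the library whose header names namoline only, these were -0.29 ± 0.11 and 0.49 ± 0.11 (edgeR adjusted p = 0.0235 and 2.35e-05), so that ATF3 then passed as lower. In the RefSeq promoters, 4 of 15 genes of this branch with an entry (26.7%) held the ATF4 element, ASNS, CHAC1, PPP1R15B and ATF3, against 3.67% of all promoters, and 0 held ERSE, a description with no test.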
